A study of Mus musculus with 6 samples.

Results

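Neurons release transmitter when vesicles fuse at the presynaptic membrane. A SNARE protein on the vesicle (a Vamp) zips together with syntaxin and SNAP-25 on the target membrane. Syntaxin-binding proteins guide the assembly, complexins hold the assembled complex ready, and synaptotagmins trigger fusion when calcium enters. Rims and Unc13 proteins prime vesicles at the active zone. Neurexins reach across the cleft to neuroligins, which Dlg and Shank scaffolds anchor on the postsynaptic side. In the retina, photoreceptors and bipolar cells release at ribbon synapses, which use partly different family members (such as Cplx3 and Cplx4 in place of Cplx1 and Cplx2), whereas amacrine and ganglion cells form conventional synapses.

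The genes described here were taken by their names: synaptotagmins, syntaxins and their binding proteins, Vamp, SNAP and SV2 proteins, synapsins, synaptophysins and synaptogyrins, complexins, Rab3, Rims, Unc13, neurexins, neuroligins, Dlg1 to Dlg4 and Shank. The names picked out 95 of the 15450 named genes, on 222 transcript rows, and 48 of the 95 genes rested on 1 row. The prefix Rab3 also took in 11 GTPases from Rab30 to Rab39, which belong to other Rab subfamilies and are given separately. Stx1a and Rab3b were not analysed here.

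The study put the transcription factor Sox11 into mouse eyes with an adeno-associated virus and asked how the RNA of Thy1-sorted retinal cells differed from that of eyes given a control virus. Eyes of mice that were 3 to 4 weeks of age when the work began received AAV-Sox11 or AAV-Control (genotype label AAV-PLAP). The retinas were taken 2 weeks later, 3 days after the optic nerve had been crushed in both groups. Each of the 3 libraries in a group pooled 3 retinas from 3 animals, so a library, not an animal, is the unit of every n, and single animals cannot be seen. The letters A, B and C mark the day on which 1 library of each group was prepared. Cells labelled as retinal ganglion cells were sorted live on the surface protein Thy1, and polyadenylated RNA was amplified from a very small input.

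Values are the deposited normalized values, summed over the transcript rows of a gene. Library totals of the deposited whole numbers ran from 10747985 to 11546892. The mean of Sox11 itself was 114 ± 15.6 (SD, n = 3) in AAV-Control and 232 ± 52.1 in AAV-Sox11, without overlap (log2 fold change 1.003 ± 0.20 SE, limma adjusted p = 0.0504). The sort held other retinal cells: 10 of 10 rod markers, 11 of 12 bipolar, 7 of 8 cone, 8 of 11 amacrine, 8 of 9 Müller glia and 13 of 14 ganglion cell markers were measured. Summed rod markers lay between 42159 and 65651 in AAV-Control and between 26238 and 47492 in AAV-Sox11, and summed ganglion cell markers between 7523 and 11131 and between 9515 and 12466. In such bulk libraries fewer cells of a type and less RNA per cell cannot be told apart.

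Most genes of the release machinery did not pass the test between the groups, and the 3 that did were all lower in AAV-Sox11: the complexin Cplx3, the vesicle glycoprotein Sv2b and the postsynaptic scaffold Dlg2. A gene was called when limma's p, adjusted over all 15450 genes by Benjamini and Hochberg's method, was under 0.05. No member was called in a fit with a covariate for a direction of variation that the deposited values lack. The share of all genes called in that fit is not given here, so its count is not read as a result about the members. The 3 calls are 3.16% of the 95 genes, beside 2.32% of all genes called in either direction. No member was called higher, beside 0.796% of all genes, and 1.52% of all genes were called lower. At an unadjusted limma p under 0.05, 26 members (27.4%) stood out, beside 24.3% of all genes. The shares of called genes were thus near those of all genes. The median log2 fold change was 0.02 over the members and 0.03 over all genes, with 49 members positive and 46 negative, beside 53.8% of all genes positive.

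The start-site sequences of Cplx3 and Sv2b are shown because these are the called members that belong to the ribbon synapse list. That list was chosen with earlier results of these data known. Each runs from 250 bases before to 50 bases after the RefSeq start on GRCm38.p6, in the direction of the gene. Cplx3 lies on the minus strand of chromosome 9 (GRCm38 57599992 to 57606281) and its start region is chr9:57606232-57606531. Sv2b lies on the minus strand of chromosome 7 (75114894 to 75309262), and the start region of its transcript Sv2b-201 is chr7:75309213-75309512. Capitals mark TAATCC, the reverse complement of GGATTA, the core that the photoreceptor and bipolar factors of the OTX and CRX family bind.
Cplx3: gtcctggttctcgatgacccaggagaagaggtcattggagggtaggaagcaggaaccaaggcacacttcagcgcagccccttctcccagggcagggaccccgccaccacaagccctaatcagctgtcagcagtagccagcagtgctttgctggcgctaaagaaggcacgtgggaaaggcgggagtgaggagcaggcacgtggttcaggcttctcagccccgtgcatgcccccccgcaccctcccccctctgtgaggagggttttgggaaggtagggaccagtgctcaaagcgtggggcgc
Sv2b: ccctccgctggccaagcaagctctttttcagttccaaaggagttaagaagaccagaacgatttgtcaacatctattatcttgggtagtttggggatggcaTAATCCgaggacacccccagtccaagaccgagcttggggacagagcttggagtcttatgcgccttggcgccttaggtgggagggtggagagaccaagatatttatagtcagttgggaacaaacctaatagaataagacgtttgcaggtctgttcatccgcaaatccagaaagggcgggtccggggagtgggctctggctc
Both strands of the 101 start regions matched to 72 members were searched for GGATTA and for the SOX-type cores AACAAT and AACAAAG. None of the 3 occurs in the Cplx3 region. The Sv2b region shown holds GGATTA, first at base 101 of its 300, and neither SOX core. Of the other Sv2b start regions, chr7:75302560-75302859 holds GGATTA at base 160. The regions chr7:75308337-75308636 and chr7:75219970-75220269 hold none of the 3. GGATTA was in 7 member regions (6.93%), beside 7.06% of all 32851 regions. AACAAT was in 5 (4.95%, beside 10.7%) and AACAAAG in 3 (2.97%, beside 5.85%). A match is a stretch of letters and says nothing of binding.

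The complexin Cplx3, found at ribbon synapses and in some amacrine cells, had normalized values of 4891, 4959 and 4600 in AAV-Control A, B and C and of 2878, 3117 and 3314 in AAV-Sox11 A, B and C. All 3 AAV-Sox11 libraries lay well below all 3 controls. The mean fell from 4817 ± 191 to 3103 ± 218 (SD, n = 3), a log2 fold change of −0.64 ± 0.08 (SE, limma adjusted p = 0.0169). Sv2b, a transporter-like glycoprotein of the vesicle membrane, had 103, 87.3 and 86.8 in the controls and 49.0, 43.6 and 42.2 in AAV-Sox11. No value of one group reached the other. Its mean fell from 92.3 ± 9.16 to 45.0 ± 3.57, a log2 fold change of −1.02 ± 0.17 (limma adjusted p = 0.0313). Dlg2 (PSD-93), a membrane-associated guanylate kinase that clusters receptors and channels, lies on the plus strand of chromosome 7 (90476672 to 92449247). It had 1783, 1815 and 1961 in the controls and 1339, 1295 and 1353 in AAV-Sox11, with tight groups that did not touch. The mean fell from 1853 ± 94.5 to 1329 ± 30.4, a log2 fold change of −0.48 ± 0.07 (limma adjusted p = 0.0276).

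These calls depended on which libraries and terms entered the fit. The share of all genes called in each of these fits is not given here. The counts of members are therefore not read as results about the members. No member passed limma's adjusted threshold without AAV-Control A (22 at an unadjusted p under 0.05), AAV-Sox11 A (24), AAV-Sox11 B (11) or AAV-Sox11 C (21), while 8 passed without AAV-Control B and 4 without AAV-Control C. None passed with a covariate for a direction of variation that the deposited values lack (18 unadjusted) or for a sex index of each pool (23 unadjusted); that index, Xist minus the mean of 4 Y-linked genes on a log2 scale, was 6.82, 6.79 and 5.26 in the controls and 6.86, 8.11 and 8.45 in AAV-Sox11. With it in the fit the log2 fold change was −0.77 for Cplx3, −0.99 for Sv2b and −0.41 for Dlg2. With the missing direction as covariate the log2 fold changes were −0.64 ± 0.10, −1.02 ± 0.23 and −0.48 ± 0.10 (SE, limma adjusted p = 0.0671, 0.124 and 0.111).

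**Figure D1:**
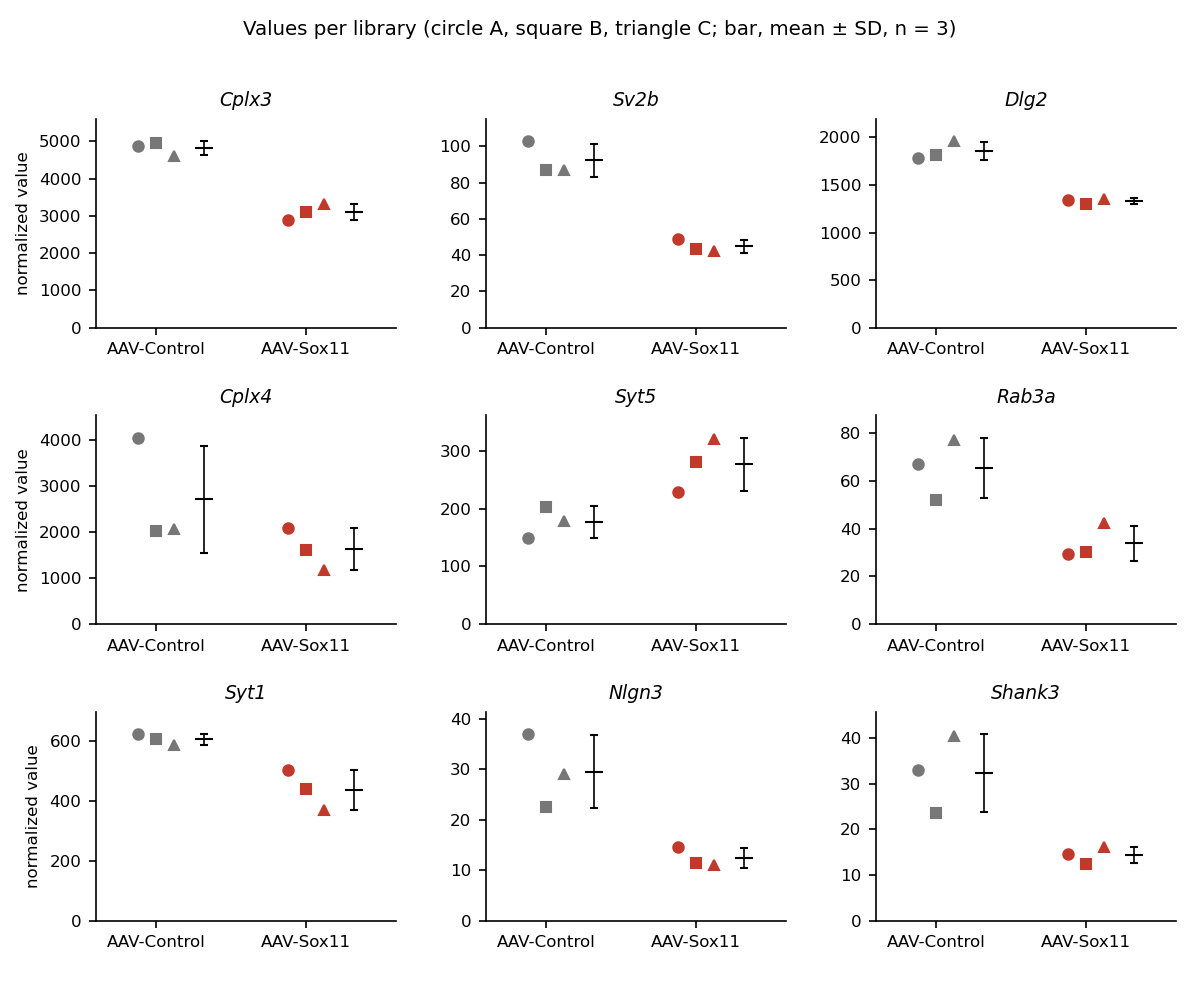
Normalized values of 9 members in each library, with AAV-Control in grey and AAV-Sox11 in red on a linear axis from 0, and bars for the mean ± SD (n = 3). Cplx3, Sv2b and Dlg2 in the top row separate with narrow groups, and AAV-Control A stands alone at 4040 in Cplx4.

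The other complexins did not pass. Cplx4, the second complexin of ribbon synapses, had 4040, 2028 and 2052 in the controls and 2081, 1613 and 1184 in AAV-Sox11. AAV-Control A was far above the other 5 libraries, and AAV-Sox11 A lay just above AAV-Control B and C. With preparation day as a block, limma gave −0.69 ± 0.13 and an adjusted p of 0.0451, against 0.213 without it. Without AAV-Control A the log2 difference was −0.37 ± 0.23. Of the complexins of conventional synapses, Cplx1 had 724, 826 and 769 in the controls and 545, 671 and 821 in AAV-Sox11 (−0.20 ± 0.15). Cplx2 had 2968, 5068 and 3440 against 3584, 5003 and 5668 (0.32 ± 0.23). Both overlapped widely, and AAV-Control B of Cplx2 lay above AAV-Sox11 A and B.

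Among the 14 synaptotagmins 7 log2 fold changes were positive and 7 negative, with a median of −0.09. Values did not overlap in 3 that were higher and 4 that were lower, where 16.2% of all genes lay entirely above and 14.4% entirely below the controls. Syt1, the main fast calcium sensor of conventional synapses, had 623, 608 and 589 in the controls and 505, 439 and 371 in AAV-Sox11. The groups separated, but the difference of −0.48 ± 0.12 had a limma adjusted p of 0.0788. Coding rows held 26.7% of the Syt1 value and rows of transcripts that keep an intron 53.8%, with log2 differences of −0.39 and −0.53. Syt5, a sensor of dense-core and other vesicles, had 149, 203 and 179 against 229, 281 and 321, also without overlap. Its difference of 0.64 ± 0.17 had an adjusted p of 0.0843, and 0.0492 with the day block, the single member called higher in that fit, where 2.09% of all genes were called higher, 2.68% lower and 4.77% either way. Syt7, a slow high-affinity sensor named here after its values were seen, had 220, 195 and 188 against 263, 269 and 262 (0.40 ± 0.11, limma adjusted p = 0.0930). The AAV-Sox11 values of Syt7 lay close together, above every control.

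Syt4, which binds little calcium and was the most abundant synaptotagmin, had 6115, 5671 and 5211 in the controls and 5444, 6076 and 6422 in AAV-Sox11 (0.08 ± 0.09), fully overlapping. Syt11, likewise weak in calcium binding, had 30.1, 38.2 and 28.9 against 19.8, 20.8 and 19.1 (−0.67 ± 0.21). Syt10 had 418, 217 and 208 against 162, 168 and 171 (−0.67 ± 0.26, limma adjusted p = 0.172). AAV-Control A was again the high library. Syt2, the fast sensor of many rapidly firing neurons, had 170, 54.9 and 168 against 67.8, 57.1 and 102, and AAV-Control B was the lowest of the 6 libraries.

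The SNARE proteins were mostly slightly positive, and none passed. Of 13 syntaxins 11 had a positive log2 fold change, beside 53.8% of all genes, with a median of 0.20. In 5 of the 13 all AAV-Sox11 values lay above all controls, beside 16.2% of all genes. These were Stx2, Stx5a, Stx6, Stx16 and Stx17, named after their values were seen. Stx2 rested on retained-intron rows, and the other 4 serve Golgi, endosome and autophagosome traffic and not transmitter release. Retained-intron rows also held 75.2% of the Stx5a value. The ribbon syntaxin Stx3 had 794, 657 and 531 against 559, 580 and 519 (−0.24 ± 0.15), with overlap. Stx7, an endosomal syntaxin, had 2507, 2844 and 3473 against 3260, 3216 and 3584 (0.20 ± 0.12).

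Vamp2, the main vesicle SNARE of neurons, had 6913, 5599 and 5644 in the controls and 4827, 5413 and 6194 in AAV-Sox11 (−0.14 ± 0.12), with overlap. Vamp1, its close relative, gave 0.13 ± 0.17 and Vamp3, of recycling endosomes, 0.20 ± 0.09. Vamp4, of the trans-Golgi network, was the Vamp whose values did not overlap, at 328, 353 and 276 against 438, 438 and 356 (0.36 ± 0.14, limma adjusted p = 0.163). Coding rows held 35.0% of the Vamp4 value and a retained-intron row 42.8%, with log2 differences of 0.16 and 0.61. Snap25, the partner SNARE of syntaxin at the plasma membrane, had a mean of 40862 ± 1387 in AAV-Control and 39798 ± 5034 in AAV-Sox11 (−0.05 ± 0.11). Snap29, which works in autophagosome fusion, had 385, 394 and 503 against 514, 509 and 582 (0.33 ± 0.13, limma adjusted p = 0.174). Snap91 (AP180), a clathrin assembly protein and no SNARE, gave −0.20 ± 0.14.

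The 7 syntaxin-binding proteins divided into 4 positive and 3 negative. Stxbp5l (tomosyn-2), an inhibitor of SNARE assembly named after its values were seen, had 941, 942 and 945 against 773, 765 and 766. Both groups were very tight, and the difference of −0.30 ± 0.07 had a limma adjusted p of 0.0706. Its relative Stxbp5 had 5301, 4012 and 4238 against 4165, 4145 and 4226 (−0.10 ± 0.11). Stxbp6 (amisyn) had 480, 851 and 520 against 765, 1096 and 1167 (0.73 ± 0.25, limma adjusted p = 0.131), with AAV-Control B above AAV-Sox11 A.

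Proteins of the vesicle membrane other than Sv2b differed little. Sv2a, the widespread SV2, had a mean of 10679 ± 603 in AAV-Control and 10080 ± 435 in AAV-Sox11 (−0.08 ± 0.08), and Sv2c gave 0.24 ± 0.18. Synapsins tether vesicles to actin; Syn1 gave 0.11 ± 0.12, Syn2 −0.27 ± 0.13 and Syn3 0.09 ± 0.08. Synaptophysin, Syp, had 6017, 6126 and 4027 in the controls and 4193, 4706 and 4033 in AAV-Sox11. AAV-Control C sat at the level of AAV-Sox11, and the difference of −0.30 ± 0.17 did not pass (limma adjusted p = 0.304). Syngr1, a relative of synaptophysin, gave 0.17 ± 0.10.

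The Rab3 GTPases tie vesicles to the active zone through Rims. Rab3a had 67.0, 52.0 and 77.2 in the controls and 29.2, 30.1 and 42.2 in AAV-Sox11, lower in all 3 day pairs (−0.93 ± 0.24, limma adjusted p = 0.0760). Rab3c, far more abundant in these cells, had a mean of 10278 ± 196 against 10261 ± 1334 (−0.01 ± 0.10). Rab3gap2, a subunit of the Rab3 GTPase-activating complex, had 2073, 2475 and 2153 against 2681, 2840 and 2707 (0.30 ± 0.09, limma adjusted p = 0.0993). Rab3a overlaps Mpv17l2 on the opposite strand, and use of strand in counting was not given in the sources used here. Among the 11 Rab30 to Rab39 genes 8 were positive, with a median of 0.13 and none called; Rab39b, the most abundant, gave 0.01 ± 0.07 and Rab36 0.40 ± 0.18.

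The active zone genes were spread about 0, with 4 of 7 positive and a median of 0.02. Unc13a and Unc13b, the Munc13 priming factors, gave 0.02 ± 0.08 and 0.05 ± 0.16. Rims1 gave −0.21 ± 0.25, Rims2 −0.11 ± 0.12 and Rims4 0.39 ± 0.19. The groups of these overlapped. In 1 of the 7 all AAV-Sox11 values lay below all controls, beside 14.4% of all genes. This was Rims3, named after its values were seen, with 122, 96.1 and 135 against 93.8, 86.2 and 93.5 (−0.35 ± 0.17, limma adjusted p = 0.252).

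Genes of synaptic adhesion and of the postsynaptic scaffold were mostly negative. All 3 neurexins and all 7 Dlg and Shank genes had a negative log2 fold change, with medians of −0.27 and −0.26, and all AAV-Sox11 values lay below all controls in 2 neurexins and 3 scaffold genes. Over all 95 members 17 (17.9%) lay entirely below, beside 14.4% of all genes, and 17 (17.9%) entirely above, beside 16.2%. Of the neurexins and scaffold genes Dlg2 alone was called. Nrxn3 had 2913, 2506 and 2752 in the controls and 2234, 2099 and 2081 in AAV-Sox11 (−0.35 ± 0.08, limma adjusted p = 0.0674). Its groups separated, and those of Nrxn2 overlapped (−0.18 ± 0.24).

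Neuroligin 3, Nlgn3, had 36.9, 22.5 and 28.9 in the controls and 14.6, 11.4 and 11.1 in AAV-Sox11 (−1.17 ± 0.27, limma adjusted p = 0.0630). Shank3, which links scaffolds to actin, had 33.0, 23.5 and 40.5 against 14.6, 12.5 and 16.1 (−1.09 ± 0.27, limma adjusted p = 0.0718). Both separated at low values, and each rested on 1 row annotated as a processed transcript, with no coding row. Shank3 also overlaps Gm15609 on the opposite strand and Nlgn3 overlaps Gm21986. Nlgn1, of excitatory synapses, went the other way at 34.9, 50.01 and 49.2 against 57.3, 61.3 and 63.4 (0.45 ± 0.20). Nlgn2, of inhibitory synapses, had 27.2, 10.8 and 15.4 against 15.6, 9.35 and 6.04, which overlapped. Shank1 had 1673, 1324 and 1545 against 1226, 1191 and 1241 (−0.31 ± 0.10, limma adjusted p = 0.125), without overlap. Shank2 gave −0.26 ± 0.20, Dlg3 −0.25 ± 0.16, Dlg4 (PSD-95) −0.11 ± 0.20 and Dlg1 −0.04 ± 0.11.

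**Figure D2:**
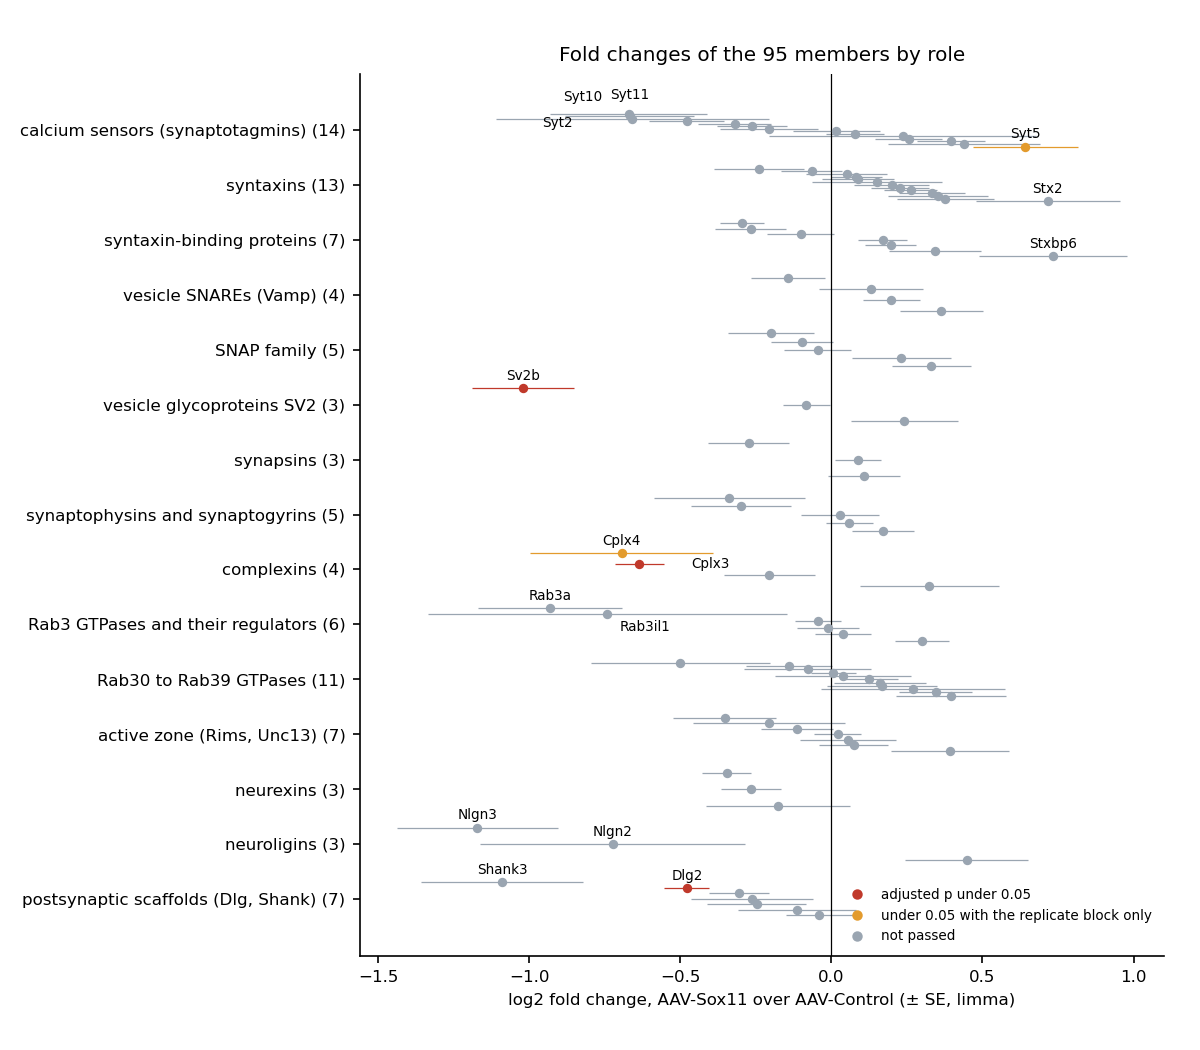
Log2 fold change (AAV-Sox11 over AAV-Control, ± SE from limma) of each of the 95 members, 1 row per role with the number of members in parentheses. Red points passed the adjusted threshold (Cplx3, Sv2b, Dlg2), orange points passed it with the day block alone (Cplx4, Syt5), and the 7 scaffold genes all lie left of 0.

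Levels between genes were compared per kilobase of transcript, for the 94 members with an annotated length. Snap25 stood far above the rest at a mean of 20149 per kilobase over the 6 libraries, followed by Vamp2 at 2739, Sv2a at 2465 and Syp at 2221. These are core genes of the neuronal terminal. Syt4 reached 1496, and the ribbon complexins Cplx3 at 1385 and Cplx4 at 1193 stood beside Rab3c at 1216. Of the fast calcium sensors Syt1 reached 444 per kilobase, summed over coding and non-coding rows, and Syt2 15.0. Sv2b was at 12.8, near the bottom, and Nlgn2 was the lowest at 2.53. The called members therefore came from both ends of the range. Across the members the highest control was a median 1.28 times the lowest, beside 1.36 for all genes, and in AAV-Sox11 1.17 times, beside 1.21.

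A list of 16 genes of retinal ribbon synapses, 15 of them measured, was mostly lower. It was chosen with earlier results of these data known and holds the called members Cplx3 and Sv2b. In it 12 of 15 log2 fold changes were negative, with a median of −0.59, against 0.03 over all genes, and 2 were called, Cplx3 and Sv2b. The 6 members on the list (Cplx3, Cplx4, Sv2b, Rab3a, Stx3 and Rims2) were all negative. Of the other 9, 6 were negative, with a median of −0.42, and none passed limma. With the day block 1 of these 9 passed higher (Rimbp2) and 1 lower (Cacna1f). Cacna1f, the calcium channel of photoreceptor terminals, had 521, 260 and 237 in the controls and 174, 149 and 121 in AAV-Sox11 (−1.12 ± 0.30, limma adjusted p = 0.0854, and 0.0343 with the day block). Ctbp2, whose product Ribeye builds the ribbon, gave −0.59 ± 0.21, and the vesicular glutamate transporter Slc17a7 −0.79 ± 0.38. Rimbp2, which couples Rims to calcium channels, was positive at 0.57 ± 0.13 (limma adjusted p = 0.0657, and 0.0381 with the day block).

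A list of 11 measured genes of conventional synapses had a median of −0.01 and no call, with 5 positive. Its 9 members ran from −0.27 for Syn2 to 0.32 for Cplx2. Slc17a6, the glutamate transporter of ganglion cells, was at 0.99 ± 0.26 (limma adjusted p = 0.0802). The difference between both lists was not tested.

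Markers of several cell types had mostly negative fold changes beside that list, those of the cells that own ribbon synapses among them. All 11 measured bipolar markers were negative, with a median of −0.86, and their sum lay between 12980 and 24387 in AAV-Control and between 9746 and 11642 in AAV-Sox11. All 7 cone markers were negative (median −0.84), with sums from 742 to 2689 and from 594 to 868. Of 10 rod markers 9 were negative (median −0.53). Microglia, which form no synapses, had 5 of 5 measured markers negative with the same median of −0.53, and sums from 1733 to 4802 and from 1826 to 2581. Müller glia markers had a median of −0.04. None of these markers passed limma without the day block, and with it 6 rod and 2 bipolar markers were called lower and no cone, microglia or Müller glia marker. AAV-Control A had the highest sum of bipolar, cone and rod markers, as it had the highest Cplx4, Cacna1f and Slc17a7. Sv2b was highest there too, and Cplx3 and Dlg2 were not. Without AAV-Control A the log2 fold change was −0.62 ± 0.09 for Cplx3, −0.94 ± 0.16 for Sv2b and −0.51 ± 0.07 for Dlg2 (limma adjusted p = 0.0534, 0.0600 and 0.0540).

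Of 8 amacrine markers 2 passed. The glycine transporter Slc6a9 fell from 380 ± 89.0 to 195 ± 12.04 (−0.93 ± 0.18, limma adjusted p = 0.0481) and Dab1, known from AII amacrine cells, fell from 3817 ± 96.5 to 2251 ± 108 (−0.76 ± 0.07, limma adjusted p = 0.0132). The other 6 had values on both sides of 0, and the list's median was 0.17. Of 13 ganglion cell markers 10 were positive (median 0.72), and Stmn2, of growing axons, rose from 466 ± 97.03 to 961 ± 192 (1.04 ± 0.20, limma adjusted p = 0.0447). With the day block 3 ganglion cell markers were called higher. The part of cell makeup in the lower Cplx3, Sv2b and Dlg2 was not tested.

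The rows of single transcripts differed within several genes. Fitted row by row, 6 member rows passed limma, all lower, beside 1.46% of the 26334 named rows called lower and 0.520% called higher. Cplx3-201 and Sv2b-201 are coding transcripts. The other 4, among them rows of Dlg2, Nrxn3 and Shank1, carry the GENCODE type retained intron, meaning a transcript that keeps intronic sequence. Of 64 member rows of that type 4 were called lower, beside 1.51% of all such rows, and of 128 coding member rows 2, beside 1.19%. The median log2 fold change was −0.17 over the member rows with a retained intron and −0.05 over all 6008 such rows. Over coding rows it was 0.00 for the 128 of members and 0.07 for all 13426.

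Dlg2 shows what this means for a call. Its row Dlg2-206, with 2 exons and a retained intron, held 57.5% of the gene's value and had 1118, 1068 and 1155 in the controls and 786, 702 and 656 in AAV-Sox11. That row fell by 0.64 ± 0.10 on the log2 scale (limma adjusted p = 0.0293). The coding row Dlg2-202 held 9.76% and gave −0.30 ± 0.17 (limma adjusted p = 0.344), in the same direction with overlapping groups. When genes were summed over coding rows alone, an alternative chosen after seeing the data, Dlg2 was no longer called (−0.30 ± 0.17, limma adjusted p = 0.327). Cplx3 and Sv2b stayed called at 0.0219 and 0.0389, where 1.06% of all genes were called lower.

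In Shank1 the coding row Shank1-203, with 64.9% of the value, gave −0.07 ± 0.14 (limma adjusted p = 0.807). Its retained-intron row Shank1-204 had 498, 480 and 641 against 320, 288 and 318 (−0.79 ± 0.14, limma adjusted p = 0.0348). In Nrxn3 the row Nrxn3-209 gave −0.69 ± 0.11 (limma adjusted p = 0.0296) and the coding row Nrxn3-205 −0.11 ± 0.11 (limma adjusted p = 0.571). The smaller coding row Nrxn3-201, with 2.81% of the value, gave −1.03 ± 0.25 (limma adjusted p = 0.0701). It was not called, but its groups did not overlap. Nrxn3-209 held 10.8% of the gene's value. The largest row, Nrxn3-208 of the GENCODE type nonsense-mediated decay, held 48.5% and gave −0.31 ± 0.11 (limma adjusted p = 0.150), without overlap.

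The synapsin Syn3 had rows on both sides of 0. Its coding row Syn3-201 had 572, 544 and 474 in the controls and 725, 748 and 681 in AAV-Sox11 (0.44 ± 0.11, limma adjusted p = 0.0740). The retained-intron row Syn3-203 had 106, 91.2 and 116 against 64.6, 63.4 and 74.4 (−0.62 ± 0.17, limma adjusted p = 0.0880). Summed over its rows, Syn3 therefore showed little difference. The pattern did not run through all members: of 30 with both kinds of row, the retained-intron rows were the lower in 18 and the higher in 12, with medians of −0.19 and, for coding rows, −0.05. The division of reads among overlapping transcripts of a gene was not given in the sources used here.

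**Figure D3:**
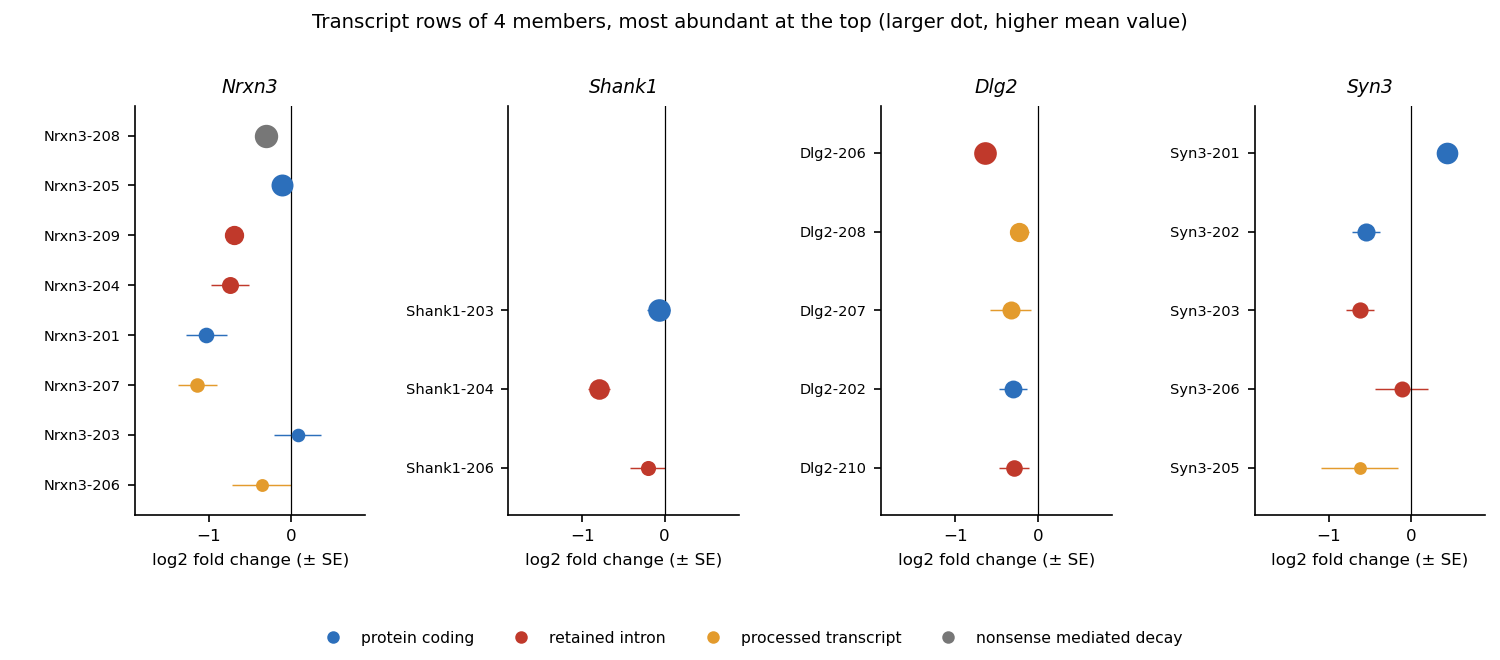
Log2 fold change (± SE) of each transcript row of 4 members, the most abundant row at the top, with larger dots for higher mean values and colours for the transcript type. In Dlg2, Nrxn3 and Shank1 the called rows are of the retained-intron type, Shank1-203 lies near 0, and the rows of Syn3 lie on both sides of 0.

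The authors' deposited table gives its own test per transcript row. Of the 222 member rows, 16 were lower and 1 higher in the authors' deposited table at a false discovery rate under 0.05, in 11 genes, beside 4.88% and 1.95% of all named rows. The row higher in the authors' deposited table was Stxbp6-202, with a log2 fold change of 0.71 and a false discovery rate of 0.0410. Cplx3-201 stood at −0.63 (0.000214) in the authors' deposited table and Sv2b-201 at −1.18 (0.00122). The lower rows in the authors' deposited table included 2 coding rows of Shank2, Shank2-202 at −1.54 and Shank2-201 at −0.95. Also lower in the authors' deposited table was the coding row Nrxn3-201, at −1.10 with a false discovery rate of 0.00639.

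Outside the named families, 84 of 93 listed genes of the same pathways were measured: SNARE cycle and tethers, active zone, vesicle transport and filling, endocytosis, and postsynaptic scaffold and adhesion. The list was chosen with earlier results of these data known. None was called higher, beside 0.796% of all genes, and 3 were called lower, beside 1.52%. With the day block 1 (Rimbp2) was called higher, beside 2.09% of all genes, and 3 lower, beside 2.68%. Of the 84 genes 44 were positive and 40 negative, with a median of 0.02. Amph, an endocytic protein that binds dynamin, had 7211, 7185 and 6596 in the controls and 4586, 4944 and 5155 in AAV-Sox11 (−0.52 ± 0.08, limma adjusted p = 0.0263). Ptprf (LAR), a presynaptic adhesion phosphatase, had 5269, 5287 and 5383 against 3000, 2933 and 2937 (−0.85 ± 0.06, limma adjusted p = 0.0113). Lrfn5, a postsynaptic adhesion protein, fell from 800 ± 72.3 to 526 ± 20.8 (−0.60 ± 0.10, limma adjusted p = 0.0294). In each of the 3 the groups stood well apart. The list that holds Ptprf and Lrfn5, of postsynaptic scaffold and adhesion, had 10 positive and 13 negative genes with a median of −0.06.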

How the data were processed

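Polyadenylated RNA of 6 pooled, Thy1-sorted libraries was analysed, 3 AAV-Control and 3 AAV-Sox11. Base calling with CASAVA 1.8.2, edgeR and the build mm10 are given per the submitters' processing notes; aligner and transcript assignment were not given in the sources used here. Deposited by the authors was 1 table of 26691 transcript rows. Its normalized values (a signal, the deposited whole numbers rescaled by factors of 0.965 to 1.04) were summed per gene name; 357 rows with no name, 0.422% to 0.517% of the totals, were left out, as were 6 columns of per-sample log ratios. The whole numbers deposited by the authors are treated as scores, not read counts: on the log scale, for rows of mean over 2000, 4 of the 5 possible directions between libraries have spread, and the missing direction (SD 9.48e-05 against 0.0871 natural-log units) weighs most on AAV-Sox11 B. No count model was therefore used, and reads per library are unknown. The authors' log2 fold changes, p-values and false discovery rates come from the deposited table and are printed only where named.

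Differences were tested with limma 3.58.1 (R 4.3.3, trend) on log2(value + 1), which understates changes of low genes, over all 15450 named genes, with a minimum mean of 1 and Benjamini-Hochberg adjustment. The script was tested on simulated data. Tables and figures used Python 3.11.15, pandas 2.3.3 and matplotlib 3.10.9; transcript types and coordinates come from GENCODE M21 (221 of 222 member rows), start regions from RefSeq. The series' design places same-letter libraries on a shared preparation day, so the replicate block was an alternative; deviations of same-day libraries correlated at 0.00250 (A), 0.793 (B) and 0.236 (C). The p-values measure the spread between pooled libraries that the deposited values keep. The missing direction lies almost across the group contrast (cosine 0.0185). The main fit counts it as residual spread although it has almost none, so the SEs of that fit can be too small. Members and lists were chosen with earlier results of these data known. Named are members called with or without the block, 44 measured genes fixed by name (some are not reported here), and in each role the most abundant member and the one of largest fold change with a mean of at least 100; others named are marked as chosen after their values were seen. Alternatives were other scalings, pseudocounts, filters, covariates and left-out libraries.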

Additional observations from a re-analysis of the deposited data

How the results depend on the processing

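The analysis called 0 members higher and 3 lower. The lower count stayed 3 under median-of-ratios, library-total and upper-quartile scaling, pseudocounts of 0.1 and 10, a minimum mean of 50, no filter and robust variance. The replicate block gave 1 higher (Syt5) and 4 lower (Cplx4 added). The lower count was 0 with a covariate for the removed direction, alone or together with the block, with the sex index, and without both libraries of day A, B or C; it was 1 without the intensity trend, 6 over single transcript rows and 2 over coding rows, chosen after seeing the data. Leaving out 1 library gave 0 to 6 lower and 0 to 2 higher. The share of all genes called is not given for the scaling, covariate, no-trend and left-out fits. Their counts are therefore not read as results about the members. Members entirely above the controls numbered 17, but 11 by library total, 10 by upper quartile, 18 to 26 without 1 library, and 29, 27 and 28 without day A, B or C; those entirely below numbered 17, 17 to 25 without 1 library and 34 without day C. The shares move for all genes too: without day A, B or C 30.5%, 28.4% and 29.5% of members lay above, beside 30.2%, 25.1% and 28.9% of all genes, and without day C 35.8% lay below, beside 25.5%. Over single left-out libraries 16.9% to 24.5% of all genes lay above and 14.9% to 21.2% below. For library-total and upper-quartile scaling the share of all genes is not given here. The counts of 11 and 10 are therefore not read as results about the members. Over 23 alternatives Cplx3 ran from −0.77 to −0.57 (limma adjusted p 0.00811 to 0.168), Sv2b from −1.08 to −0.90 (0.0260 to 0.247), Dlg2 from −0.54 to −0.30 (0.0194 to 0.327), Cplx4 from −0.89 to −0.37 (0.0451 to 0.555) and Syt5 from 0.47 to 0.77 (0.0492 to 0.392). Of 52 named members that were not called, 17 changed sign in at least 1 setting, and none of the 3 called did. The members' median turned to −0.01, −0.04 and −0.03 under the 3 scalings, where that of all genes was 0.01, −0.03 and −0.02; with the sex index it was −0.12, beside 0.01. With 3 pooled libraries a group and reads per library unknown, small differences in the 19 members of mean under 100 could not be resolved.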
